A study of Mus musculus with 5 samples.

Results

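Tendon transcription factors and matricellular proteins were followed in cartilage of the mandibular condyle, which forms the head of the jaw joint, in 129/Sv mice labelled as knockouts of discoidin domain receptor 1 (DDR-1-KO, n = 2) and in 129/Sv wild-type mice (n = 3). Discoidin domain receptor 1 is a receptor tyrosine kinase that is activated by collagen, and the comparison asks which transcripts differ when it is missing. The 10 genes were Scx, Mkx, Tnmd, Tnc, Postn, Sparc, Fn1, Thbs4, Dpt and Angptl7, out of 19938 genes tested. A gene was taken from a row of the array table annotated with its symbol alone, and each of the 10 genes had 1 such row. The labels number the mice, knockout 2, knockout 5 and wild types 3, 4 and 6. The array names place the arrays in 2 runs, run 1 with knockout 2 and wild type 3, run 2 with the other 3 mice. Ddr1 itself read 5.96 and 5.80 in the mice labelled knockout and 6.02 in all mice labelled wild type (-0.14, limma's adjusted p = 0.377). It did not pass the test, and since the probes' positions were not used, it does not check the labels. The sources used here state no age, sex, knockout allele or litter. Levels are log2 signals, so that a difference of 1 is a doubling, and changes are knockout minus wild type.

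Tendons and the fibrous surface of the condyle are built by fibroblast-like cells that lay down aligned collagen. Scx, a helix-loop-helix factor, and Mkx, a homeobox factor, drive tendon gene programmes, and Tnmd is a membrane protein of mature tendon cells that marks them. Matricellular proteins are secreted into the matrix, where they bind collagen, growth factors and cell receptors and modulate attachment rather than bear load. Tenascin C, periostin, SPARC and thrombospondin 4 belong to this class, and fibronectin is the adhesive glycoprotein on which many of them assemble.

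Promoter windows of the RefSeq annotation (GRCm38.p6), from 250 bases before to 50 bases after a gene's start, were matched for 7 of the 10 genes in 9 windows. Scx, Mkx and Fn1 had no entry. The windows were searched on both strands for the E-box CANNTG, the kind of site that helix-loop-helix factors such as Scx bind, the AP-1 site TGANTCA, the Egr site GCGNGGGCG and the CArG box. The 4 windows below belong to Sparc, whose knockout mice lay furthest apart, and to Tnc, Dpt and Angptl7, which were lowest in knockout 2, with E-boxes and the Egr site in capitals and all sequences written 5′ to 3′ along the gene. Their positions are chr11:55420031-55420330 (minus strand) for Sparc, chr4:64046966-64047265 (minus strand) for Tnc, chr1:164796413-164796712 (plus strand) for Dpt and chr4:148500413-148500712 (minus strand) for Angptl7.
Sparc: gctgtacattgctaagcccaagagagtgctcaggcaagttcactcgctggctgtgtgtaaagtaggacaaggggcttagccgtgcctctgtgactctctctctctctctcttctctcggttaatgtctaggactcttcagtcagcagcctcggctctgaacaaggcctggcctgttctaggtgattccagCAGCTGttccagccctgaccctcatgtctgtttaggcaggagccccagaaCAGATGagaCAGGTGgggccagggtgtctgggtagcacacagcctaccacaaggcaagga
Tnc: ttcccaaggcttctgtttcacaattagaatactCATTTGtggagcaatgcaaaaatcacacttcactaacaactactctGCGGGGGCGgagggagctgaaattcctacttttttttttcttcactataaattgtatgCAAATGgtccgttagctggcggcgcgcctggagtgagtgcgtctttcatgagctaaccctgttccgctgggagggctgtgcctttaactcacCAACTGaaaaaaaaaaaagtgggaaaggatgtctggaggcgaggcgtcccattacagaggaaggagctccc
Dpt: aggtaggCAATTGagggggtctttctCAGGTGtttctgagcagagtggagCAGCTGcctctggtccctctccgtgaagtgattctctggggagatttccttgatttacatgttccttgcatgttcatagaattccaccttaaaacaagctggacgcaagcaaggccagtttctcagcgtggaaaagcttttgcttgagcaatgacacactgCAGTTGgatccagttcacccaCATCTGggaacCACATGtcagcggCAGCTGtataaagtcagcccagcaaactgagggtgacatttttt
Angptl7: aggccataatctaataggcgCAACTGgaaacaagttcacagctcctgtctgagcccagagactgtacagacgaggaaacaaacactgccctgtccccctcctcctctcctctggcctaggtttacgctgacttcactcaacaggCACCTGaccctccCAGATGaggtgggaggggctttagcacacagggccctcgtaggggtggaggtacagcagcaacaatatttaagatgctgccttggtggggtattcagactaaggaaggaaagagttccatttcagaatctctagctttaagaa
Dpt held 7 E-boxes, and Sparc, Tnc and Angptl7 held 3 each. The Thbs4 window held 2, and the windows of Postn and Tnmd held 0. An E-box of this form was present in 72.3% of all 32851 windows. The Egr site was found in Tnc, in a stretch shared by its 2 overlapping windows, and in 5.55% of all windows. AP-1 sites (7.81% of all windows) and CArG boxes (1.63%) were found in no window of these genes. These are matches of letters, and no binding was measured.

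No gene of the 10 passed limma's test at an adjusted p under 0.05, where 3.73% of all genes passed, and 0 of the 10 had an unadjusted p under 0.05, against 18.2% of all genes. Of the 10, 7 were lower in knockout, 2 were higher and 1 was equal, with a median change of -0.11 beside -0.00831 over all genes. In all genes, 51.1% were lower and 42.6% higher. With dim genes left out, the 9969 remaining genes had a median change of -0.135, and the 8 of the 10 among them -0.11. After quantile normalisation, after cyclic loess, and after centring and scaling the arrays, 5 of the 10 were lower and 5 higher. The lean to lower values thus depended on the scaling and was no stronger than that of the brighter genes. The knockout mice differed from each other by more than the group means did for 7 of the 10 genes, all but Tnmd, Dpt and Angptl7. The share of all genes was not computed for this count, so it shows no trait of these genes. Where 1 knockout mouse lies at the wild-type mean and the other does not, the gap exceeds the group change by construction. Knockout 2 lay below every wild-type mouse for 7 of the 10 genes and above for 0, where 41.4% and 28.7% of all genes did so. Such shares, here and below, cover dim and bright genes together, and none was computed for genes of like brightness. Knockout 5 lay below every wild-type mouse for 3 genes and above for 2, where the shares of all genes were 31.2% and 31.4%.

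**Figure D1:**
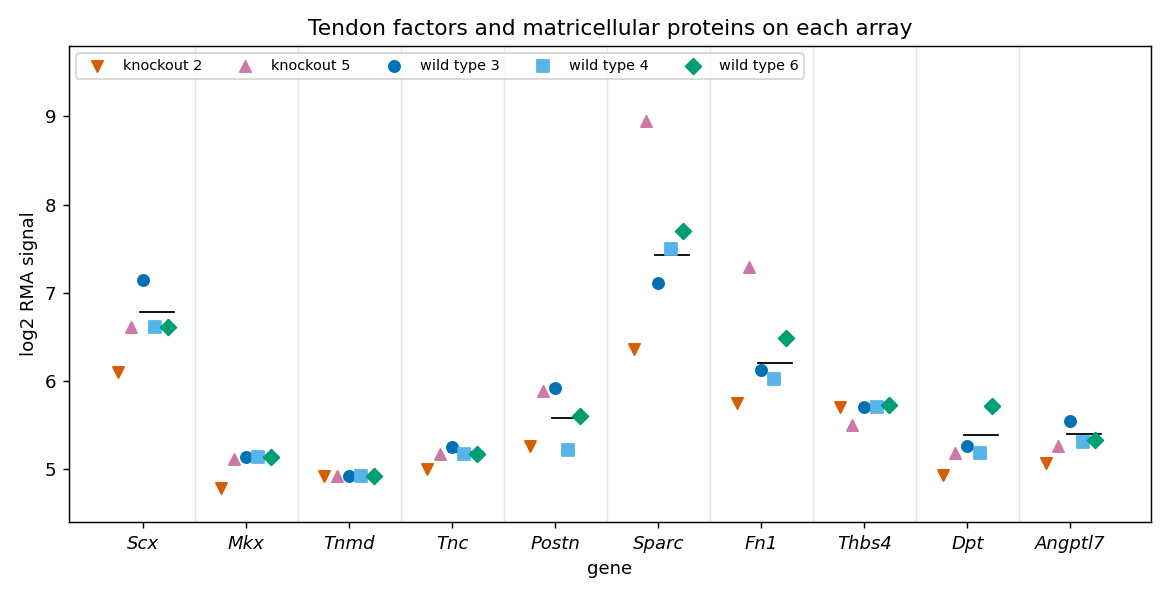
The log2 RMA signal (vertical axis) of the 10 genes (horizontal axis) on each of the 5 arrays, with a black line at the wild-type mean. Sparc and Fn1 show knockout 2 under and knockout 5 over all 3 wild-type mice, and Tnmd has the same value of 4.93 on every array.

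The arrays themselves differ in spread, which touches every value below. Over all genes, values had a standard deviation of 0.802 on the array of knockout 2, 0.906 on that of knockout 5 and 0.991 to 1.02 on the wild-type arrays, and knockout 2 correlated with the other arrays at 0.803 to 0.837 across genes, which are not independent replicates. The 1194 olfactory and vomeronasal receptor genes, which cartilage is not known to express, had a median change of 0.40. The 95th percentile of their wild-type signals was 5.55, used here as a rough mark of brightness, since probes differ. Scx, Postn, Sparc, Fn1 and Thbs4 lay above that mark in wild type, and Mkx, Tnmd, Tnc, Dpt and Angptl7 below it. Of the 10 chondrocyte markers, 6 lay above it. Identical values across arrays, which the median step of the array summary can return, occurred in 6 of the 10 genes and in 87.3% of all genes, and they do not show equal expression. The 3 wild-type values were identical for 2 of the 10 genes, Mkx and Tnmd, and for 39.1% of all genes. Where nothing says how the animals were bred, p-values measure only the spread between these samples. In whole tissue, fewer cells of a type and less RNA per cell cannot be told apart.

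Scx, the tendon helix-loop-helix factor, gave 6.10 in knockout 2 and 6.61 in knockout 5, against 7.15, 6.61 and 6.61 in wild types 3, 4 and 6. Knockout 2 was the lowest array, while knockout 5 had the value of wild types 4 and 6, so the groups met. The change was -0.43 (SE 0.271, 95% interval -1.21 to 0.35, limma's adjusted p = 0.399). It was -1.04 in run 1, the lowest within-run value of the 10 genes, and 0 in run 2. Both run 1 arrays lay outside the 3 equal run 2 arrays, wild type 3 above and knockout 2 below, and the change was -0.25 without wild type 3 and -0.18 without knockout 2. After cyclic loess, which evens out differences between arrays along signal level, it was -0.19. Bop1 and, for Angptl7, Mtor are named because their loci overlap, a choice made after values were seen. Scx lies within the locus of Bop1, a ribosome assembly factor, which read 5.58 and 6.08 in knockouts 2 and 5 against wild-type values of 6.28 to 6.41 (change -0.50, adjusted p = 0.288). Bop1 and Scx were thus both lowest in knockout 2. Whether signal of one locus enters the other's row was not tested.

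Mkx, the tendon homeobox factor, gave 4.79 in knockout 2 and 5.12 in knockout 5, against 5.14 in every wild-type mouse. Both knockout mice were below wild type, knockout 5 by 0.021. Groups that did not overlap were seen for 2 of the 10 genes, Mkx and Angptl7, both lower in knockout, where 18.6% of all genes had knockout entirely below and 31.5% had no overlap in either direction. The change of Mkx was -0.19 (SE 0.113, 95% interval -0.51 to 0.14, limma's adjusted p = 0.399), with -0.35 within run 1 and -0.021 within run 2. Its adjusted p was 0.000151 without knockout 2 (change -0.021) and 4.74e-07 without knockout 5 (change -0.35). These p-values take the spread of a lone knockout array from wild type, where the values of Mkx were identical, so they do not measure a spread between mice.

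Tnmd, the membrane protein of mature tendon cells, had the value 4.93 on all 5 arrays. This held for 6.26% of all genes. The fit gave a 95% interval of -0.04 to 0.04 for its change, but with equal values this interval comes from limma's moderation and bounds no difference between mice. Its wild-type signal lay below the brightness mark, and 14.4% of the receptor genes were as bright or brighter. The array therefore gave no value for this marker from which mice could be told apart.

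Tnc, tenascin C, read 5.004 in knockout 2 and 5.17 in knockout 5, with 5.26 in wild type 3 and 5.17 in wild types 4 and 6. The array of knockout 2 was the lowest, and knockout 5 equalled wild types 4 and 6, the same layout as for Scx. The change was -0.11 (SE 0.0675, 95% interval -0.31 to 0.08, limma's adjusted p = 0.399). The runs gave -0.25 (run 1) and 0 (run 2), and cyclic loess left -0.0441.

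Postn, periostin, a fasciclin-domain protein of periosteum and fibrous tissue, gave 5.26 in knockout 2 and 5.89 in knockout 5, against 5.92, 5.22 and 5.60 in wild types 3, 4 and 6. The wild-type mice spanned 0.701, the widest wild-type range of the 10 genes, and both knockout mice lay inside it. The change was -0.00225 (SE 0.318, 95% interval -0.92 to 0.92, limma's adjusted p = 1). The difference was -0.66 in run 1 and 0.48 in run 2, and its sign followed the scaling, with 0.128 after cyclic loess.

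Sparc, a collagen-binding glycoprotein abundant in bone and fibrous tissue, read 6.36 in knockout 2 and 8.95 in knockout 5, against 7.11, 7.50 and 7.70 in wild types 3, 4 and 6. Knockout 2 was below all wild-type mice and knockout 5 above them. The mean change was 0.22 (SE 0.895, 95% interval -2.36 to 2.80, limma's adjusted p = 0.915), an interval that leaves large changes of either sign possible. The knockout mice differed by 2.58, about 5.99-fold, while the wild-type mice spanned 0.590. Only 0.0251% of all genes had knockout 5 above knockout 2 by as much. The difference was 2.33 after cyclic loess and 2.42 after centring and scaling the arrays. Without knockout 2 the change was 1.51 and without knockout 5 it was -1.07, so the direction turned on which knockout mouse was left in. The runs gave -0.74 (run 1) and 1.35 (run 2).

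Fn1, fibronectin, read 5.75 in knockout 2 and 7.29 in knockout 5, against 6.12, 6.02 and 6.49 in wild types 3, 4 and 6. As for Sparc, the knockout mice lay on opposite sides of all wild-type mice. This layout, knockout 2 below and knockout 5 above, held for 2 of the 10 genes and for 9.08% of all genes. The change was 0.31 (SE 0.547, 95% interval -1.26 to 1.89, limma's adjusted p = 0.723). It was -0.37 within run 1 and 1.04 within run 2. The knockout mice differed by 1.55, about 2.92-fold, and by 1.35 after cyclic loess, and 0.813% of all genes had a difference as large in this direction. Without knockout 5 the change was -0.46 and without knockout 2 it was 1.09.

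**Figure D2:**
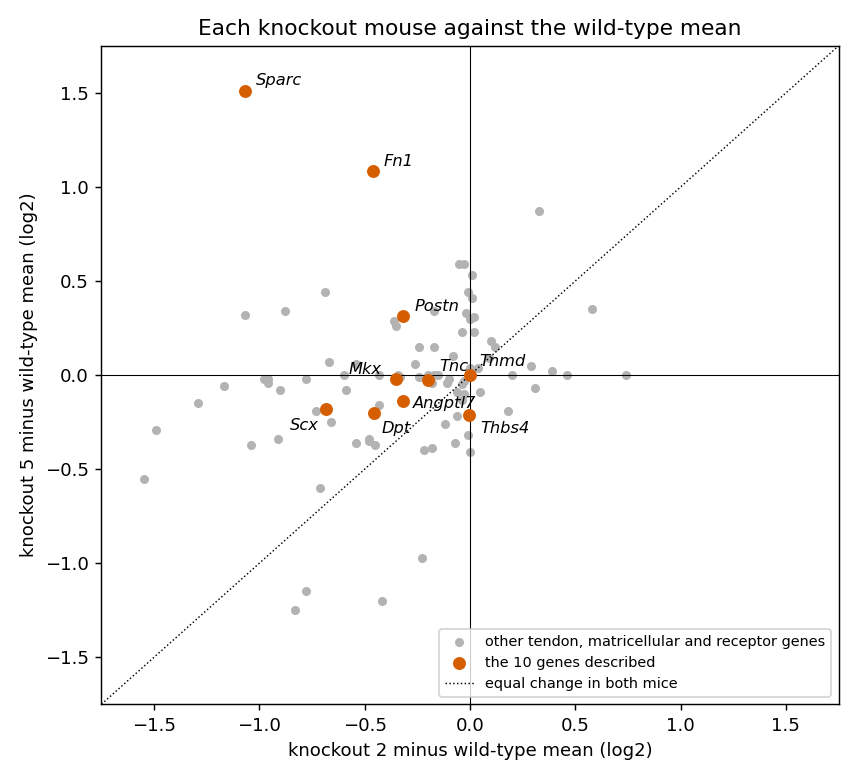
Each point is a gene, with knockout 2 minus the wild-type mean on the horizontal axis and knockout 5 minus the wild-type mean on the vertical axis, both on the log2 scale; grey points are the 88 other genes of the tendon, matricellular, receptor and relative lists. Sparc and Fn1 lie far above the dotted line of equal change, in the part of the plot where knockout 2 is low and knockout 5 high.

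Thbs4, thrombospondin 4, a pentameric glycoprotein of tendon and muscle junctions, gave 5.71 in knockout 2 and 5.50 in knockout 5, against 5.71, 5.71 and 5.72 in wild type. Here knockout 5 was the low array and knockout 2 matched wild types 3 and 4, the reverse of the layout of Scx and Tnc. The change was -0.11 (SE 0.072, 95% interval -0.32 to 0.10, limma's adjusted p = 0.399), and -0.21 within run 2 against 0 within run 1. Without knockout 2 its adjusted p was 0.00279 at a change of -0.21, with the spread taken from wild-type values that ranged over 0.0134. The sign turned after cyclic loess, to 0.032.

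Dpt, dermatopontin, a small matrix protein that binds decorin and helps collagen fibrils form, gave 4.94 in knockout 2 and 5.19 in knockout 5, against 5.27, 5.19 and 5.72 in wild types 3, 4 and 6. Knockout 2 was the lowest array, knockout 5 had the value of wild type 4, and wild type 6 stood above the others. The change was -0.33 (SE 0.213, 95% interval -0.94 to 0.29, limma's adjusted p = 0.399), with -0.33 within run 1 and -0.27 within run 2, and -0.16 without wild type 6.

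Angptl7, a secreted angiopoietin-like protein known from cornea and other collagen-rich tissue, read 5.08 in knockout 2 and 5.26 in knockout 5, against 5.55, 5.31 and 5.33 in wild types 3, 4 and 6. Both knockout mice were below all wild-type mice, knockout 5 by 0.049 from the nearest. The change was -0.23 (SE 0.109, 95% interval -0.54 to 0.09, limma's adjusted p = 0.399), -0.47 within run 1 and -0.062 within run 2. An exact permutation test over the arrays gave p = 0.1 for Angptl7 and Mkx, two-sided, the smallest p that 2 against 3 arrays allow. Angptl7 lies within the locus of Mtor, the growth-controlling kinase, which read 5.02 in knockout 5 and 5.40 on the other 4 arrays (change -0.19, adjusted p = 0.399). Mtor was thus lowest in knockout 5 and Angptl7 in knockout 2.

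**Figure D3:**
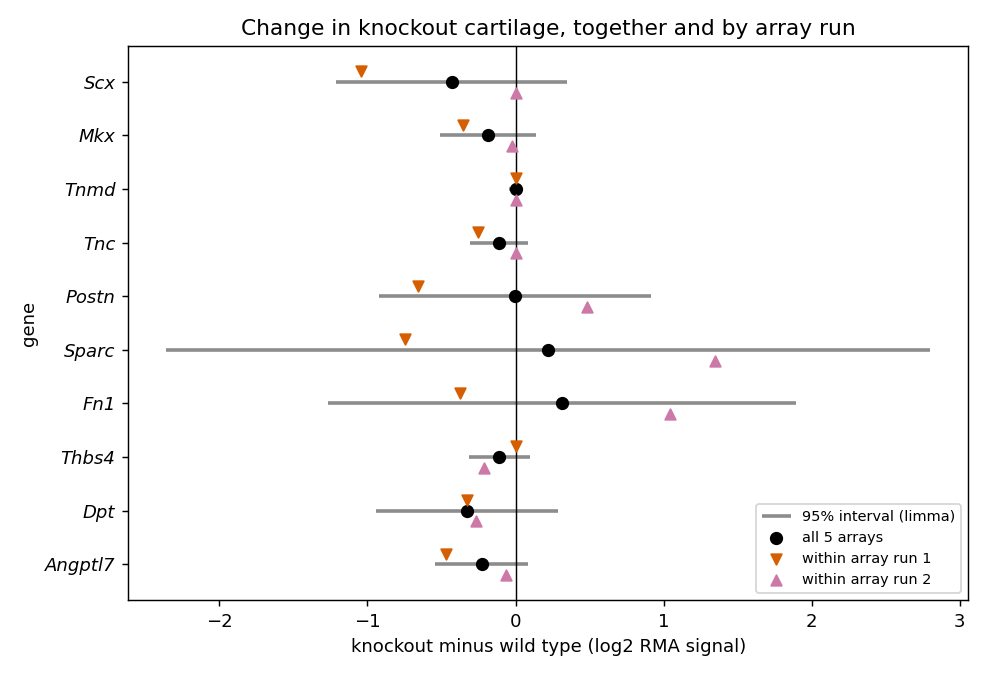
Knockout minus wild type on the log2 scale (horizontal axis) for each gene (vertical axis), as the change over all 5 arrays with limma's 95% interval (black points, grey bars) and as the difference within each array run (triangles, no test). Every interval includes 0, and the run 1 values lie at or left of 0 for all 10 genes.

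By array run, 8 of the 10 genes were lower in knockout within run 1, 2 were equal and 0 were higher, with a median of -0.36. Over all genes 47.5% were lower in that run. Within run 2, 4 were lower, 3 equal and 3 higher, with a median of 0, beside 37.8% of all genes lower. Each run holds 1 knockout mouse, so the run and the mouse cannot be told apart. Knockout 5 was above knockout 2 for 8 of the 10 genes, with a median difference of 0.29, where 50.4% of all genes had that order and the median over all genes was 0.00656. A difference of at least 1 in that direction was seen for Sparc and Fn1, 2 of the 10, and for 4.37% of all genes. The other 8 genes differed between the knockout mice by at most 0.63, the value of Postn.

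**Figure D4:**
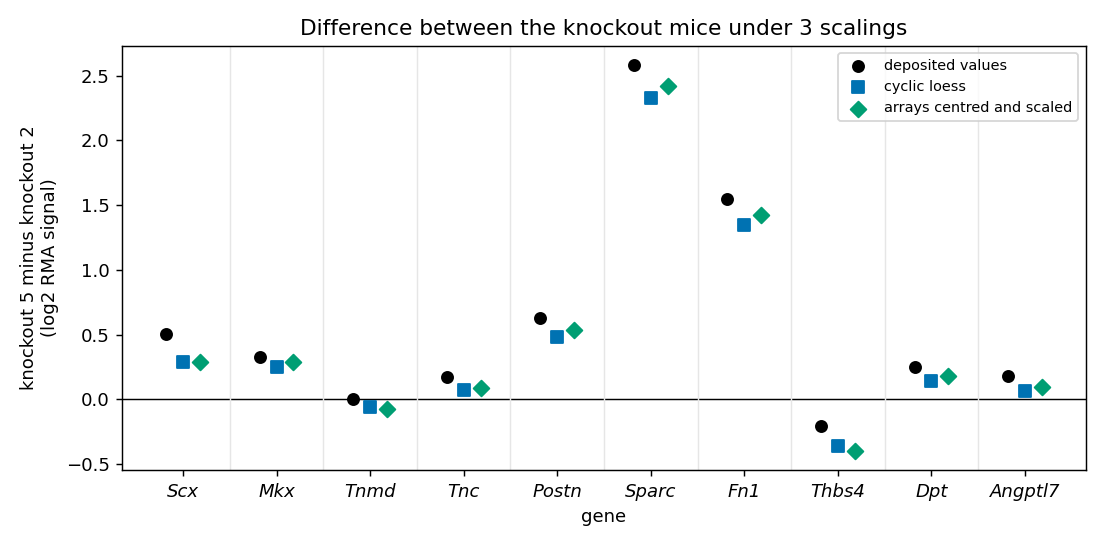
Knockout 5 minus knockout 2 on the log2 scale (vertical axis) for the 10 genes (horizontal axis), from the deposited values, after cyclic loess and after centring and scaling the arrays. Sparc keeps 2.33 to 2.58 and Fn1 1.35 to 1.55 under the 3 scalings, and Thbs4 is the gene with knockout 5 lower in all of them.

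Other genes of tendon and ligament, 35 of 36 listed, held 1 that fell and 34 that did not pass, with a median change of -0.08. Over all genes 2.18% fell and 1.55% rose. Egr1, a zinc finger factor of tendon development, fell from 5.80 in each wild-type mouse to 5.32 in knockout 2 and 5.45 in knockout 5 (-0.41, SE 0.0464, limma's adjusted p = 0.0422), a standard error that rests on equal wild-type values. Fgf4, a growth factor, had -0.45 (adjusted p = 0.0613). Gdf7, a bone morphogenetic protein relative that can induce tendon tissue, read 6.70 and 6.28 in knockouts 2 and 5 against wild-type values of 7.40 to 7.63, a change of -1.04 (adjusted p = 0.0731). Of the list, 23 of 35 genes had knockout 2 below all wild-type mice and 3 had it above, beside 41.4% and 28.7% of all genes. Knockout 5 was below for 11 and above for 10, beside 31.2% and 31.4%. The collagens Col6a3 and Col12a1, chosen after their values were seen, shared the layout of Sparc and Fn1. Col6a3, a chain of the microfibrillar collagen VI, read 4.96 in knockout 2, 6.18 in knockout 5 and 5.84 on all wild-type arrays. Col12a1, a fibril-associated collagen, was at 4.64, 5.77 and 5.33 in the same order. Col1a1, the main collagen of tendon and bone, chosen in the same way, did not share it, with 6.53 and 7.07 in knockouts 2 and 5 against wild-type values of 7.26 to 7.27.

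Among 24 other matricellular proteins, 1 fell, 0 rose and 23 did not pass, with a median of -0.08. The fall was that of Comp, the cartilage thrombospondin, from 6.21 to 6.27 in wild type to 5.78 in knockout 2 and 5.86 in knockout 5 (-0.41, SE 0.0378, limma's adjusted p = 0.0327). Comp belongs to the family of Thbs4, but its knockout mice lay close together. Ccn1, a growth-factor-inducible matricellular protein, had -0.97 (adjusted p = 0.0782) and Ccn6, of the same family, -0.19 (adjusted p = 0.168). Tnn, tenascin W, a relative of Tnc chosen after its values were seen, read 4.70 in knockout 2, 6.09 in knockout 5 and 5.77 on all wild-type arrays.

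Among receptors, 2 listed names led to Pirb. Of 18 measured receptors of these proteins, 0 passed limma's test. The lowest p-values were those of the integrin chain Itgb3 (-0.41, adjusted p = 0.0725), of Cd36, a thrombospondin receptor (0.46, adjusted p = 0.0916), and of Cd47, another (-0.29, adjusted p = 0.237). Among 22 measured relatives of the 10 genes, 2 fell and 20 did not pass. One was Comp, and the other was Irx2, a homeobox gene of the class of Mkx. Irx2 fell from 7.21 in each wild-type mouse to 6.50 in knockout 2 and 6.61 in knockout 5 (-0.66, SE 0.0409, limma's adjusted p = 0.0213). As for Egr1, that standard error rests on equal wild-type values. Tcf15, the helix-loop-helix factor close to Scx, had -0.31 (adjusted p = 0.133). In all, 3 of 88 different genes on these 4 lists fell and 0 rose, near the share of all genes that passed. The calls of Egr1, Comp and Irx2 come from a fit whose count of calls over all genes was 0 after cyclic loess, with the run as a block and without wild type 3, 4 or 6.

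The layout of knockout 2 below and knockout 5 above all wild-type mice was found in 13 of these 88 genes, 14.8%, against 9.08% of all genes. Besides Col6a3, Col12a1 and Tnn they included Eya1, Bgn and Fbln2. In most of the 13 genes the 3 wild-type values were identical, so that any offset lay outside them. For Fbln2 the offset of knockout 5 was 0.06. The mean profile of the 10 genes, each centred on its wild-type mean, was -0.39 in knockout 2, 0.21 in knockout 5 and 0.04, -0.10 and 0.06 in wild types 3, 4 and 6. The 0.21 was carried by Sparc, Fn1 and Postn, since 6 of the 10 genes lay below their wild-type mean in knockout 5 and the median there was -0.0244. The likeness that follows rests on this mean. Over the 5 arrays, the list genes closest to it by root mean square difference were Eya1, a transcriptional cofactor (0.0667), Bgn, the small proteoglycan biglycan (0.0878), Fbln2, a basement membrane fibulin (0.104), Itga8, an integrin chain (0.111), and Stab1, a scavenger receptor that takes up SPARC (0.112). Eya1 was at -0.36 in knockout 2 and 0.29 in knockout 5 on this centred scale, and Bgn at -0.24 and 0.15.

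Markers of cells that dissected condyle can hold moved beside these values. The mean signal of 10 chondrocyte markers was 5.54 in knockout 2 and 5.88 in knockout 5, against wild-type means of 5.98 to 5.99. In all 10 knockout 2 lay below every wild-type mouse, beside 41.4% of all genes, dim and bright together. The array of knockout 2 had the narrowest spread (0.802), and no share among genes of like brightness was computed. A loss particular to chondrocyte genes was therefore not tested. Sox9 and Col9a3 of that list fell, with changes of -0.42 and -0.61 (limma's adjusted p = 0.0229 and 0.0422), where 2.18% of all genes fell. The mean of 12 skeletal muscle markers was 5.49, 5.65 and 5.79 to 5.90 in the same order. For 6 osteoblast and osteocyte markers it was 5.02, 5.19 and 5.10 to 5.12. For 6 osteoclast markers it was 4.86, 5.39 and 5.29 to 5.35. Both of these means had knockout 2 below and knockout 5 above wild type. Single markers with that layout were 1 of 6 osteoblast and osteocyte genes (Ibsp) and 0 of 6 osteoclast genes, beside 9.08% of all genes. The 4 adipocyte markers averaged 5.03, 5.42 and 5.33 to 5.42, the 5 epithelial markers 4.89, 5.23 and 5.22 to 5.28, and the 6 endothelial markers 5.02, 4.94 and 5.07 to 5.18. For 7 blood and marrow markers the means were 5.37, 5.30 and 5.21 to 5.27, and for 3 Schwann cell and nerve markers they were 4.36, 4.32 and 4.30 to 4.34. That near-level mean holds a fall of Nefl (-0.62, limma's adjusted p = 0.0125) and a rise of Cdh19 (0.50, adjusted p = 0.0211). In wild type Nefl (4.35) and Cdh19 (2.73) lay below the brightness mark of 5.55. Cidec, of the adipocyte list, fell by 1.01 on the log2 scale (limma's adjusted p = 0.0231). The other 3 markers of that list did not pass, with changes of 0.43 (Adipoq), 0.03 (Fabp4) and -0.12 (Plin1). The marker calls come from the fit whose count over all genes was 0 after cyclic loess and with the run as a block. That count was also 0 without wild type 3, 4 or 6. The part of these cell types in the values of the 10 genes was not tested.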

How the data were processed

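Total RNA of 5 condylar cartilage samples was labelled with biotin and hybridised to Affymetrix mouse gene 1.0 ST arrays, per the labels. Values were deposited as log2 signals that the authors computed with Affymetrix Expression Console and RMA, per the submitters' processing notes. RMA corrects background, quantile-normalises and summarises probes by median polish. The sources used here name no version and no genome build. Of 35556 rows, 21789 had 1 gene symbol. Each of 19938 genes was represented by its brightest row on average.

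Knockout was set against wild type in limma 3.58.1 (R 4.3.3; lmFit, eBayes, two-sided, all 5 arrays), with Benjamini-Hochberg adjustment over all genes tested and a threshold of 0.05. The fit was tested on simulated data. The number of arrays limits the precision. Alternatives covered array run, rows, dim genes, variance model, array weights, normalisation, threshold and each array left out.

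The members and lists were chosen with earlier results of these data known. Genes named were the 10 members, up to 3 of lowest p from each list and the 5 list genes closest to the mean profile. Ddr1, markers past the threshold, Ibsp and the other adipocyte markers were added later. Others are marked as chosen after their values were seen. Some listed genes and markers were not analysed here.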

Additional observations from a re-analysis of the deposited data

How the results depend on the processing

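Over all genes 309 were higher and 435 lower past the threshold. Both counts were 0 with the array run as a block, with array weights, with quantile normalisation and with cyclic loess, where 3829, 1917, 3761 and 3919 genes had an unadjusted p under 0.05 in limma. Centring and scaling the arrays left 90 higher and 68 lower, arrays centred 343 and 292 (54.0% of the calls higher in place of 41.5%), and a threshold of 0.1 gave 654 and 976. Without dim genes 55 were higher and 391 lower (12.3% higher), with Mkx and Tnmd among those left out and a median change of -0.135. Testing all rows gave 54.8% higher. Leaving out 1 array in turn gave 0 to 3930 higher and 0 to 6069 lower. The cause of these moves was not tested.

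The count of the 10 genes past the threshold was 0 in every alternative that kept both knockout mice. A fit without knockout 2 or 5 holds 1 knockout array and takes its spread from wild type alone. The count of the 10 is not given there. The change of Postn turned to 0.112 with quantile normalisation, 0.128 with cyclic loess, 0.07 with arrays centred and 0.131 with arrays centred and scaled, and ran from -0.316 to 0.312 with an array left out. Thbs4 turned to 0.0294, 0.032 and 0.0638 with quantile normalisation, cyclic loess and arrays centred and scaled. With array weights Sparc turned to -0.548 and Fn1 to -0.113. With an array left out Sparc ran from -1.07 to 1.51 and Fn1 from -0.46 to 1.09. Scx, Mkx, Tnc, Dpt and Angptl7 kept their direction in every alternative run on them, and Tnmd stayed between 0 and 0.0723. No paired analysis was possible because the groups share no replicate number, and the array run, which both genotypes share, was the block used instead.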
